A study of Mus musculus with 9 samples.

Results

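The enzymes of peroxisomal beta- and alpha-oxidation and one transporter that supplies them were followed through the livers of 3 groups of mice: Abcd3, Amacr, Acox2, Ehhadh, Hsd17b4, Acaa1a, Acaa1b, Scp2 and Hacl1. They were found by gene name on the arrays, which gave 9 of the 37074 gene names and 12 of the 56605 non-control probes, whatever their values. Male C57BL/6N mice, whose age the labels give as 12 months, had received an empty hepatocyte-directed adeno-associated virus and a regular diet (AAV-V), the same kind of virus encoding mouse GP73 and a regular diet (AAV-GP73), or the empty virus and a high-fat diet (AAV-V HFD), with 3 arrays each. GP73 is a Golgi protein encoded by Golm1, and all 3 groups carried a virus. The paper places the livers at that many months after injection, its results and its methods give different lengths for the diet, and neither source says if mice were pooled, so that the p values measure the spread between these arrays. A single slide carried both regular-diet groups and another the high-fat diet group, and an effect of the slide cannot be told apart from one of the diet. Hacl1 is also a gene that the study singled out on these same arrays, and its place among the 9 was not independent of its values.

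Peroxisomes shorten fatty acids that mitochondria handle poorly: very-long-chain, methyl-branched and dicarboxylic acids, and the side chains of bile acid precursors. Each round of beta-oxidation runs through an acyl-CoA oxidase that makes hydrogen peroxide, a bifunctional enzyme and a thiolase, whereas alpha-oxidation removes a single carbon from 3-methyl-branched acids such as phytanic acid before they can enter that cycle. In rodent liver many of these genes are classic targets of the nuclear receptor PPARα, which binds DNA with RXR at direct repeats of a short half-site.

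The probes are 60-base oligonucleotides, and the sequences of 3 genes are shown here because the results turn on them: Acaa1a and Hacl1, each with a probe near the end of its transcript and another further upstream, and Ehhadh. The first 30 of the 60 bases of each are given as in the array design, and the coordinates (mm9) are those of the whole probe.
Acaa1a, transcript position 722, chr9:119255643-119256863, plus strand: ctgctggagagtgagaaagccagagactgc
Acaa1a, transcript position 1697, chr9:119259353-119259412, plus strand: ccctggttgcaaagccatttgtacctttga
Hacl1, transcript position 86, chr14:32454006-32454065, minus strand: gatgccagaaagtaactccgcagagggtag
Hacl1, transcript position 1853, chr14:32421117-32421176, minus strand: gaggaattttctctttcccgcaaggtagaa
Ehhadh, transcript position 2394, chr16:21761914-21761973, minus strand: atggccagatttcaggaatgtgttttctat
The Acaa1a probe at position 722 covers 1221 bases of the genome with its 60 bases and therefore joins 2 exons across an intron. The exon or untranslated region of the other probes is not given here, since no annotation of mm9 was used.

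The AAV-V arrays stood apart from the other 6. Between 6.67 and 7.21% of non-control probes were well above background on them, against 12.5 to 14.9% for AAV-GP73 livers and 10.2 to 13.2% for AAV-V HFD, and the median processed signal of the 2667 probes detected on all 9 arrays was 33.1 to 38.7 in AAV-V, whereas AAV-GP73 gave 104 to 129 and AAV-V HFD 76.4 to 124. The spike-in RNA added at labelling gave 10.73 ± 0.28, 10.58 ± 0.04 and 10.85 ± 0.20 (log2 mean ± SD, n = 3 arrays each) in the same order. Position in the transcript also moved with the group. Over 196 transcripts with 2 tested probes at least 500 bases apart, a comparison chosen after the data were seen, the later over the earlier probe within an array was higher in AAV-GP73 than in AAV-V by a median log2 difference of 1.02, and 83 ratios rose and 10 fell by limma at 2-fold and adjusted p under 0.05. For AAV-V HFD against AAV-V the median was 0.97, with 83 higher and 9 lower, and for AAV-GP73 against AAV-V HFD it was -0.06, with 0 called in either direction. Since 9 of the 10 tested member probes lie at transcript position 1334 or beyond, these values stand beside every comparison with AAV-V below, and their part in it was not tested. Golm1 had 1 probe, which was well above background on 0 of 9 arrays, so that the virus labels could not be checked with it. Of 7 hepatocyte marker genes (11 probes), Alb, Ttr, Apoa1, Apob, Serpina1a, Cps1 and Ass1, the probes well above background on every array of a group numbered 9 for AAV-V, 10 for AAV-GP73 livers and 9 for AAV-V HFD. In bulk tissue a smaller share of hepatocytes and less RNA per hepatocyte cannot be told apart.

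Against AAV-V, all 9 genes had a probe that rose in AAV-GP73 livers, and 1 probe, the upstream probe of Acaa1a, fell. Values below are log2 processed signals, scaled so that their 75th percentile over commonly detected probes was equal, and a probe was called at a change of at least 2-fold with an adjusted p under 0.05 in limma over 6591 probes tested. Of the 10 member probes that were bright enough to test, 9 were called higher and 1 lower, where 33.9% of all probes tested were called higher and 17.9% lower. The groups did not overlap with AAV-GP73 higher for 9 of the 10, against 45.7% of all probes tested. In AAV-V HFD against AAV-V the counts were again 9 higher and 1 lower (25% and 16.9% of all probes tested), and 9 did not overlap with AAV-V HFD higher (34.6%). The AAV-V arrays are shared by these comparisons. Of the 10 probes, 7 passed the brightness filter through the AAV-GP73 or AAV-V HFD arrays alone and could hardly be other than higher there, so that these counts and the medians below are a description. The 3 that were detected on all AAV-V arrays were Scp2 and Acaa1b, which rose, and the upstream Acaa1a probe, which fell. The median log2 change of the 10 probes was 3.61 for AAV-GP73 livers and 2.55 for AAV-V HFD, beside 0.64 and 0.41 over all probes tested. Because 5 of the 10 probes stayed below background throughout AAV-V, the median was also taken with these at their lower bound, where it was 2.71 and 1.66. Such bounds set the dim group on each array to the lowest signal among detected probes, or to the probe's own value if higher. An adjusted p printed beside a bound, here and below, belongs to the fitted difference and not to the bound. Many of these changes shrank or vanished when normexp with an offset of 50 replaced the processed signal: 4 member genes were then called for AAV-GP73 livers and 2 for AAV-V HFD. With every value under an array's lowest detectable signal raised to it, a setting added after the data were seen, 9 and 6 member genes were called, and Abcd3, Ehhadh and Hacl1 were no longer called higher in AAV-V HFD. That offset exceeds the mean processed signal of 9 of the 10 probes for AAV-V, 3 for AAV-V HFD and 0 for AAV-GP73.

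**Figure D1:**
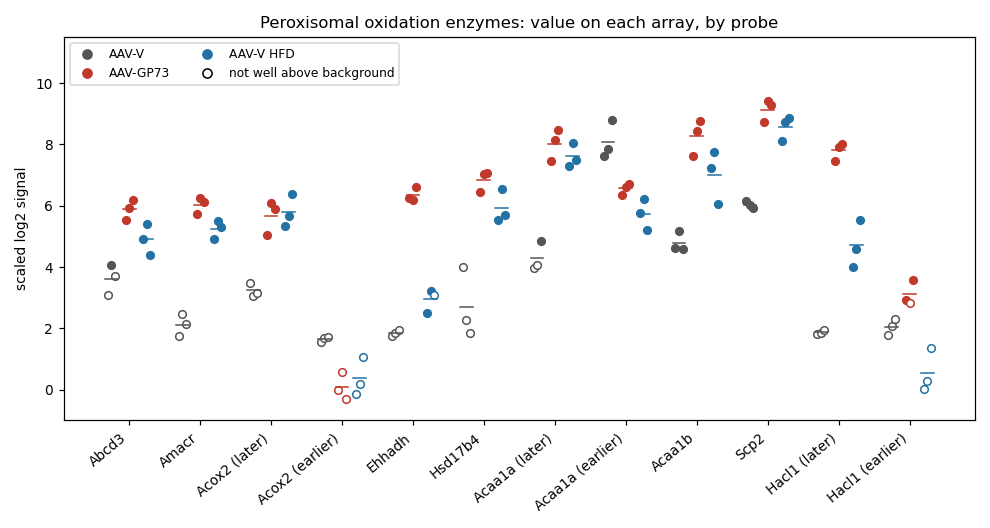
Scaled log2 signal of the 12 member probes on each of the 9 arrays (3 per group; dashes are group means, open circles are arrays where the probe was not well above background); "later" and "earlier" refer to the position in the transcript. Hacl1 (later) and Ehhadh have AAV-GP73 points well above both other groups, and Acaa1a (earlier) is highest in AAV-V.

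The contrast of AAV-GP73 with AAV-V HFD, taken from the same fit of all 3 groups, called 2 members. Hacl1, the lyase of alpha-oxidation, and Ehhadh, the bifunctional enzyme of the inducible beta-oxidation route, were higher in AAV-GP73, and the other members were not called. These 2 were the members called among 10 probes tested, where 2.08% of all probes tested were called higher and 0.592% lower. Ehhadh had passed the brightness filter through the AAV-GP73 arrays alone, the group where it was high, while Hacl1 was detected on all 6 arrays. A fit of these 6 arrays alone, with the same probes, called both (adjusted p = 0.0011 for Ehhadh and 0.00733 for Hacl1, limma). It used the same values and is not a separate test. The median log2 difference was 0.88 for the 10 members and 0.10 for all probes tested, and 9 of the 10 lay above the latter.

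**Figure D2:**
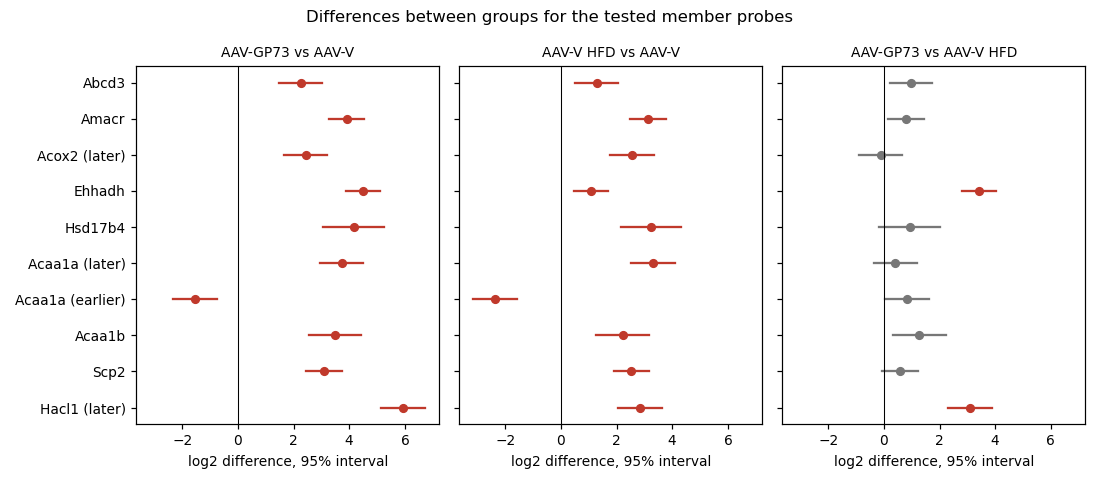
Log2 difference of each of the 10 tested member probes in the 3 comparisons (limma estimate with 95% interval, n = 3 arrays per group; red where called at 2-fold and adjusted p under 0.05, grey where not). In the right panel Ehhadh and Hacl1 stand at 3.40 and 3.10 while the other 8 lie between -0.12 and 1.27; in the left and middle panels, values of probes below background in AAV-V are fitted differences, not bounds.

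Hacl1 cleaves 2-hydroxyacyl-CoA, the step of alpha-oxidation that releases the carbon. On the AAV-V arrays its scaled log2 values were 1.81, 1.84 and 1.95, none of them well above background. The AAV-GP73 arrays read 7.45, 7.93 and 8.03, and the AAV-V HFD arrays 4.00, 4.57 and 5.55, with all 6 well above background. The 3 groups were fully separated. Hacl1 was at least 15.4-fold higher in AAV-GP73 than in AAV-V and at least 1.80-fold higher in AAV-V HFD. The fitted log2 differences were 5.94 (adjusted p = 2.92e-06, limma) and 2.84 (adjusted p = 0.000331). With values under an array's lowest detectable signal raised to it, the AAV-V HFD difference was 0.85 (adjusted p = 0.0444, limma), under 2-fold and not called. AAV-GP73 exceeded AAV-V HFD 8.56-fold (log2 difference 3.10, 95% interval 2.30 to 3.90, adjusted p = 0.00125). The early Hacl1 probe was too dim to be tested: it was well above background on 2 of 3 AAV-GP73 arrays, at processed signals of 10.2 and 20.4, and on 0 of the other 6. Its scaled mean was 3.11 ± 0.41 for AAV-GP73 livers, 2.05 ± 0.26 for AAV-V and 0.55 ± 0.72 for AAV-V HFD (SD, n = 3). The group which was highest at the late probe was also the group with detected signal at the early one. AAV-V and AAV-V HFD, both undetected there, stood in the reverse of their order at the late probe.

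Ehhadh joins the hydratase and dehydrogenase steps of the classic inducible route for straight-chain and dicarboxylic acids. It read 1.77, 1.84 and 1.96 in AAV-V, with no array well above background, and 6.25, 6.19 and 6.60 in AAV-GP73. The AAV-V HFD arrays gave 2.52, 3.22 and 3.10, of which the first 2 were well above background. Those 3 values lie under the lowest detectable value of the AAV-V arrays (3.77 to 3.94), so that no bound on a fold could be given between AAV-V HFD and AAV-V, although the fit called it (log2 difference 1.09, adjusted p = 0.00731). Without the second AAV-V HFD array that difference was 0.95 and no longer 2-fold. Ehhadh was at least 5.62-fold higher in AAV-GP73 than in AAV-V (adjusted p = 2.92e-06). AAV-GP73 exceeded AAV-V HFD 10.6-fold (log2 difference 3.40, 95% interval 2.80 to 4.01, adjusted p = 0.000103).

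**Figure D3:**
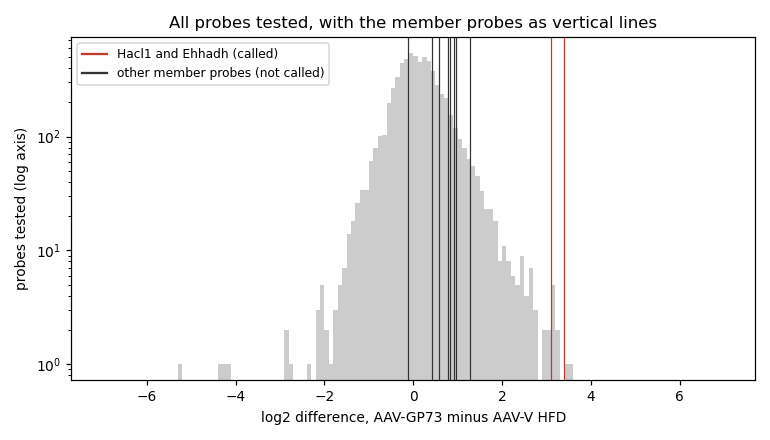
Distribution of the log2 difference between AAV-GP73 and AAV-V HFD over all 6591 probes tested (grey, log axis for the number of probes), with the 10 member probes as vertical lines. Hacl1 and Ehhadh, in red, lie at the upper end of the distribution, and the other 8 lie within its body.

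Hsd17b4, the other bifunctional enzyme, serves the branched-chain and bile acid route. Its log2 values were 3.99, 2.27 and 1.84 in AAV-V, 6.45, 7.04 and 7.07 in AAV-GP73, and 5.54, 6.55 and 5.71 in AAV-V HFD. None of its AAV-V arrays passed background, and the spread of those 3 values (SD 1.14) was the widest of any member and group. Hsd17b4 was higher in AAV-GP73 by at least 7.59-fold (adjusted p = 9.29e-05) and at least 4.00-fold higher in AAV-V HFD (adjusted p = 0.000624) than in AAV-V. The AAV-GP73 and AAV-V HFD arrays overlapped, with a log2 difference of 0.92 (95% interval -0.16 to 2.01, adjusted p = 0.395). The 2 bifunctional enzymes thus gave different results in the direct comparison; the difference between them was not tested, and levels of different probes cannot be set against each other.

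Acox2, the oxidase of branched-chain acids and bile acid precursors, was the member with the least difference between AAV-GP73 and AAV-V HFD. The late Acox2 probe read 3.49, 3.06 and 3.16 in AAV-V, below background on all 3 arrays. AAV-GP73 gave 5.03, 6.08 and 5.91, and AAV-V HFD 5.32, 5.67 and 6.39. Acox2 was higher in AAV-GP73 by at least 3.52-fold (adjusted p = 0.000227) and at least 3.83-fold higher in AAV-V HFD (adjusted p = 0.000413) than in AAV-V. The log2 difference between these 2 groups was -0.12 (95% interval -0.90 to 0.66), which does not show that the levels were equal. The Acox2 probe further upstream, at position 1364, was well above background on 0 of 9 arrays, at 1.33 to 2.12 processed signal units.

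Amacr flips the methyl group of branched acyl-CoA to the form that Acox2 accepts. Its values were 1.75, 2.48 and 2.14 in AAV-V, all below background. They were 5.72, 6.25 and 6.11 in AAV-GP73 and 4.93, 5.49 and 5.30 in AAV-V HFD, and the 3 groups did not overlap. Amacr was higher in AAV-GP73 by at least 4.50-fold (adjusted p = 7.94e-06) and at least 2.60-fold higher in AAV-V HFD (adjusted p = 0.000144) than in AAV-V. Between AAV-GP73 and AAV-V HFD the log2 difference of 0.79 (95% interval 0.14 to 1.43) was not called after adjustment (adjusted p = 0.198).

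Abcd3, the ABC transporter that brings long-chain, branched-chain and bile acid CoA esters into the peroxisome, had one of the smaller changes. It read 3.09, 4.06 and 3.72 in AAV-V, where 1 of 3 arrays was well above background, 5.52, 5.93 and 6.18 in AAV-GP73, and 4.92, 5.41 and 4.39 in AAV-V HFD. The fitted log2 change was 2.26 in AAV-GP73 (SE 0.35, adjusted p = 0.0003) and 1.28 in AAV-V HFD (SE 0.35, adjusted p = 0.0101). With the 2 undetected AAV-V arrays raised to their lowest detectable value it was 1.96 and 0.99, the latter under 2-fold, and the methods' t-test after Benjamini-Hochberg did not call it in AAV-V HFD (adjusted p = 0.0824). AAV-GP73 exceeded AAV-V HFD by 0.97 on the log2 scale without overlap (95% interval 0.21 to 1.74), which did not pass the adjusted test (adjusted p = 0.181). In AAV-V HFD the fitted change lay 0.88 above the median change of all probes tested.

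The thiolases close each round of beta-oxidation. Scp2 encodes the thiolase of the branched-chain route together with a sterol carrier protein, and it was the brightest late probe on the AAV-V arrays, at 6.16, 6.01 and 5.93, all detected. It read 8.74, 9.41 and 9.27 in AAV-GP73 and 8.12, 8.73 and 8.86 in AAV-V HFD. Since all 9 arrays measured it, its change carries no bound: 8.62-fold in AAV-GP73 (log2 3.11, SE 0.30, adjusted p = 3.54e-05) and 5.80-fold in AAV-V HFD (log2 2.54, SE 0.30, adjusted p = 0.000228). The direct log2 difference was 0.57 (95% interval -0.07 to 1.22, adjusted p = 0.376), and the 2 groups overlapped.

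Acaa1b, one of a pair of closely similar straight-chain thiolase genes, was also detected on all 9 arrays. It read 4.62, 5.16 and 4.60 in AAV-V, 7.63, 8.44 and 8.78 in AAV-GP73, and 7.23, 7.75 and 6.06 in AAV-V HFD. The rise was 11.2-fold in AAV-GP73 (log2 3.49, SE 0.43, adjusted p = 0.000111) and 4.66-fold in AAV-V HFD (log2 2.22, SE 0.43, adjusted p = 0.00191). The direct log2 difference of 1.27 was the highest among the members that were not called (95% interval 0.32 to 2.22, adjusted p = 0.165), with the third AAV-V HFD array lowest and the other 2 near the first AAV-GP73 array.

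Acaa1a, the other thiolase of the pair, gave opposite results from its 2 probes, whose sequences are printed above. At position 1697 it read 3.98, 4.06 and 4.85 in AAV-V (1 of 3 arrays well above background), 7.47, 8.14 and 8.48 in AAV-GP73, and 7.28, 8.05 and 7.50 in AAV-V HFD. This was a rise of 13.3-fold in AAV-GP73 (adjusted p = 3.54e-05) and 9.96-fold in AAV-V HFD (adjusted p = 0.00019). At position 722 it read 7.61, 7.87 and 8.81 in AAV-V, 6.35, 6.62 and 6.72 in AAV-GP73, and 5.77, 6.21 and 5.22 in AAV-V HFD, with every array well above background. This was a fall of 2.89-fold (log2 -1.53, adjusted p = 0.00353) and of 5.15-fold (log2 -2.36, adjusted p = 0.000618). The fall in AAV-GP73 depended on the scaling, since its log2 change was -0.54 with the 75th percentile of all probes and 0.15 with spike-in scaling, neither of them called. Before scaling, the processed signal of the probe at 722 spanned 97.2 to 245 in AAV-V, with 109 to 180 for AAV-GP73 livers and 37.9 to 111 for AAV-V HFD, so that the AAV-GP73 range fell within that of AAV-V. The probe at 1697 went from 7.76 to 15.8 under AAV-V to 236 to 605 under AAV-GP73 and 185 to 398 under AAV-V HFD.

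The ratio of the 2 Acaa1a probes within an array needs no scaling between arrays. The late over the early probe was 0.0803, 0.0714 and 0.0644 on the AAV-V arrays, 2.17, 2.86 and 3.37 in AAV-GP73, and 2.85, 3.58 and 4.87 in AAV-V HFD. Its log2 change from AAV-V was 5.26 in AAV-GP73 (SE 0.33, adjusted p = 8.17e-07 over 196 ratios, limma) and 5.68 in AAV-V HFD (SE 0.33, adjusted p = 3.56e-07), and between these 2 groups it was -0.42 (adjusted p = 0.681). With normexp the changes from AAV-V were 2.61 and 2.79, and the late probe was well above background on 1 of the 3 AAV-V arrays. The corresponding medians over the 196 transcripts were 1.02, 0.97 and -0.06. Whether the probe at 722 also binds Acaa1b or another transcript form was not tested.

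**Figure D4:**
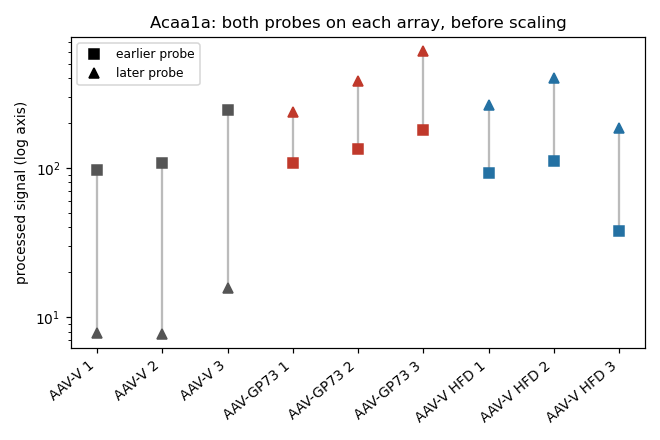
Processed signal of both Acaa1a probes on each of the 9 arrays before scaling between arrays (log axis; squares, position 722; triangles, position 1697; a grey line joins the 2 probes of an array). The square lies above the triangle on the 3 AAV-V arrays, and the order is turned on the other 6.

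Most tested genes of 2 further peroxisomal lists also had a probe called higher than in AAV-V, and 1 gene of each was called lower. Of 29 other peroxisomal lipid enzymes and transporters, 18 had a tested probe, 13 had one called higher and 1 lower in AAV-GP73 against AAV-V, and 12 and 1 in AAV-V HFD. Among their 22 probes 15 were called higher for AAV-GP73 livers and 13 for AAV-V HFD, beside 33.9% and 25% of all probes tested, and their median log2 change was 2.05 and 1.47, beside 0.64 and 0.41. Of these 22 probes, 15 were not detected on all AAV-V arrays and passed the filter through the other groups, so that the counts and medians are a description. Crot, carnitine octanoyltransferase, which readies shortened acyl chains for export, was at least 6.54-fold higher in AAV-GP73 than in AAV-V (adjusted p = 5.23e-06), and one Acad11 probe (acyl-CoA dehydrogenase family) at least 6.92-fold (adjusted p = 1.63e-05). Eci2, an isomerase for unsaturated chains, rose by 3.35 on the log2 scale at its brighter probe (adjusted p = 2.77e-05, 2 of 3 AAV-V arrays detected). The called members with the smallest changes were Nudt19, a CoA diphosphatase, at least 2.07-fold higher, and a second Acad11 probe, for which the bound stayed under 1. The third was a probe of Nudt7, another CoA diphosphatase, which fell (log2 -1.74, adjusted p = 0.0048, limma). A brighter Nudt7 probe, detected on every array, went the other way and was not called. Its log2 change was 0.45 in AAV-GP73 (adjusted p = 0.385, limma) and 1.05 in AAV-V HFD (adjusted p = 0.0601). Of the 18 genes, 3 were called for AAV-GP73 against AAV-V HFD, each at 1 of the 22 probes and higher in AAV-GP73. Over all probes tested, 2.08% were called higher and 0.592% lower. Of the 22 probes, 7 had passed the filter through the AAV-GP73 arrays alone, so that the direction of these calls is a description. The called probes of Crat and Acad11 were among those 7. The 3 genes were Crot (log2 1.82, adjusted p = 0.00985), Crat, carnitine acetyltransferase (log2 2.25, adjusted p = 0.0106, 1 of 3 AAV-V HFD arrays detected), and Acad11. Acad11 was called at its second, dim probe, with 0 of 3 AAV-V HFD arrays detected (at least 1.79-fold, adjusted p = 0.00968, limma). Its brighter probe, detected on every array of both groups, was not called (log2 1.01, adjusted p = 0.174, limma).

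Of 25 genes for peroxisome biogenesis and other matrix enzymes, 15 were tested, 13 had a probe called higher and 1 lower in AAV-GP73 against AAV-V, and 11 and 1 in AAV-V HFD (median log2 change 1.70 and 1.40 over 17 probes, of which 14 and 12 were called higher). Over all probes tested, the shares called higher were 33.9% and 25%, and the median log2 changes 0.64 and 0.41. Of the 17 probes, 12 had passed the filter through the other groups, so that these counts and medians are a description. Pex11a, a membrane protein of peroxisome division, was higher in AAV-GP73 by at least 7.38-fold (adjusted p = 0.00077). Cat, the catalase that removes the hydrogen peroxide of the oxidases, rose by 2.90 (adjusted p = 5.15e-05), and Agxt, alanine-glyoxylate aminotransferase, by 2.54 (adjusted p = 0.000518). The smallest called changes were those of Uox, urate oxidase, at 1.09 (adjusted p = 0.0127), of Pex7, the import receptor for a subset of matrix proteins, and of Pex11g, where the bounds for both stayed under 1. Pex6, an ATPase of the import machinery, fell by 2.74 (adjusted p = 9.12e-05, limma) at its only tested probe. Its other probes were below background on all AAV-V arrays and too dim to be tested, so that the fall rests on that probe. None was called for AAV-GP73 against AAV-V HFD by limma (0 of 17 probes), where 2.08% of all probes tested were called higher and 0.592% lower.

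Of 9 nuclear receptors and partners of the fatty acid oxidation programme, 6 were tested, with 9 probes. In AAV-GP73 against AAV-V 6 probes were called higher and 2 lower, beside 33.9% and 17.9% of all probes tested. In AAV-V HFD 5 were called higher and 1 lower, beside 25% and 16.9%. Of the 9 probes, 3 had passed the filter through the other groups. For AAV-GP73 against AAV-V HFD 0 of 9 were called, beside 2.08% higher and 0.592% lower over all probes tested. Hnf4a, a hepatocyte master regulator, rose by 2.46 (adjusted p = 0.000149). Nr1h4, the bile acid receptor, had 2 tested probes that moved apart: one fell (log2 -2.18, adjusted p = 0.000256), and the other was at least 2.01-fold higher (fitted log2 change 1.54, adjusted p = 0.0011). Ppara stayed below background throughout AAV-V at both tested probes and was higher in AAV-GP73 by at least 2.16-fold (adjusted p = 0.00855) and at least 1.81-fold higher in AAV-V HFD (adjusted p = 0.0215) at the brighter one. At the dimmer Ppara probe the bound was 1.06-fold in AAV-GP73. No bound was given there for AAV-V HFD, where 2 of 3 arrays were detected. The log2 difference of Ppara between AAV-GP73 and AAV-V HFD was 0.26 and 0.31 at the 2 probes (adjusted p = 0.848 and 0.729, limma). The smallest called changes were those of Ncor1, a corepressor, at 1.23 (adjusted p = 0.00963), of Rxrb, a retinoid X receptor, which fell by 1.29 (adjusted p = 0.000962), and of the Nr1h4 probe that rose. A second tested Ncor1 probe, also detected on every array, went the other way and was not called (log2 -0.63, adjusted p = 0.0659, limma). In AAV-V HFD the 2 Ncor1 probes changed by 0.67 and -0.56, and neither was called.

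Markers of other liver cells were few on these arrays. The erythroid list stood out: its summed scaled signal was 236 to 569 for AAV-V, 1863 to 9291 for AAV-GP73 livers and 395 to 622 for AAV-V HFD, and both Hba-a1 (alpha-globin) probes were called higher in AAV-GP73 than in AAV-V HFD (log2 2.35 and 3.18, adjusted p = 0.0392 and 0.0118), whereas Alas2 was not (0.92, adjusted p = 0.534). Hba-a1 thus moved with Hacl1 and Ehhadh, and its part in their difference was not tested. The hepatocyte list summed to 19803 to 30472, 18620 to 25182 and 11649 to 17828. For AAV-GP73 against AAV-V HFD 0 of its 10 tested probes were called, beside 2.08% higher and 0.592% lower over all probes tested. Of the macrophage, stellate, endothelial and erythroid lists, 11 probes could be tested. Clec4f, Dcn, Clec4g and both Hba-a1 probes were called higher and Des lower in AAV-GP73 against AAV-V, beside 33.9% and 17.9% of all probes tested. No cholangiocyte, lymphocyte or adipocyte marker could be tested.

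The mean pattern of the 9 genes over the 9 arrays was shared by many others. Of 5752 other genes, 579 (10.1%) had a Pearson r over 0.9 with it, across arrays that also share their signal level and slide. The 5 most alike were Hsdl2 (r = 0.995), a dehydrogenase-like protein, Ephx2 (0.994), the soluble epoxide hydrolase, Adck5 (0.994), Fpgs (0.990), folylpolyglutamate synthetase, and Higd2a (0.988). Each had its lowest mean in AAV-V and its highest in AAV-GP73, as Ephx2 with 5.48, 8.25 and 9.71 in AAV-V, AAV-V HFD and AAV-GP73. The AAV-V means of Hsdl2, Adck5, Fpgs and Higd2a were 1.54 to 1.78, under the lowest detectable values of those arrays (3.77 to 3.94). Among the members r with the mean pattern ran from 0.87 (Acox2) to 0.98 (Hacl1), except for Acaa1a, which entered the mean pattern with its probe at position 722, the one with the higher mean over all 9 arrays, and which had r = -0.63. Each member is itself part of that mean, which raises its r.

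Promoter sequence from RefSeq (GRCm38.p6, 300 bases around each start) was searched for 7 of the 9 genes in 9 promoters. Amacr and Hsd17b4 were not part of that search. The half-site AGGTCA, searched on both strands, was present in 1 of the 9 promoters, and in 5340 of all 32851 promoters (16.3%). Its direct repeat spaced by 1 base was present in 0 of the 9 and in 13 of all (0.0396%), which says only that these letters are not in these windows. The single match lies in the Scp2 promoter, 109 bases before the start, and is shown because it is the one match (chr4:108118639-108118668, minus strand, half-site in capitals).
Scp2 promoter: gtctaacacagtAGGTCAaaagaacccata

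**Figure D5:**
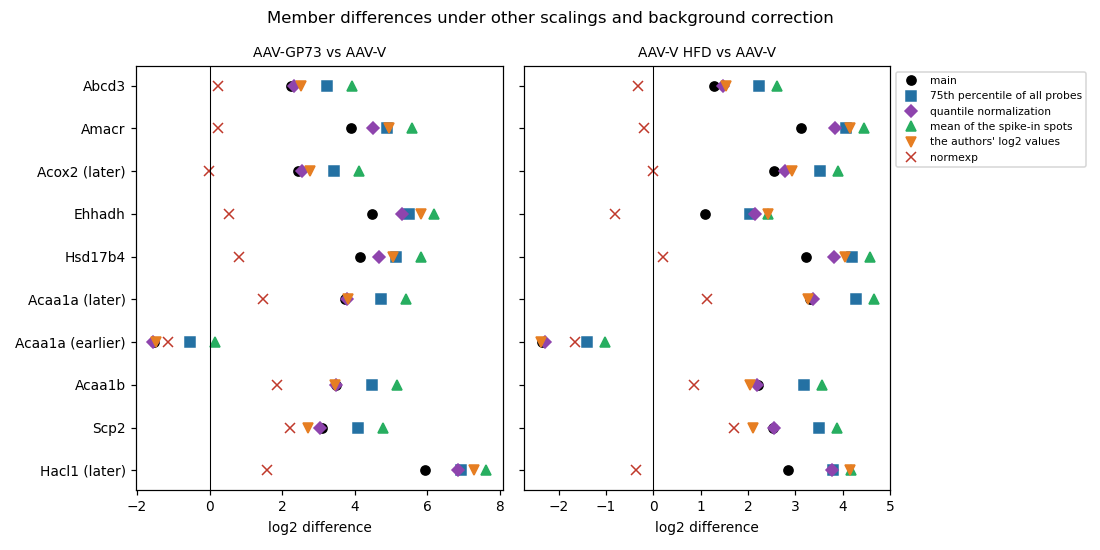
Log2 difference of the 10 tested member probes against AAV-V under the scaling used here (black) and other scalings, the authors' log2 values and normexp background correction (red crosses), for AAV-GP73 (left) and AAV-V HFD (right). Spike-in scaling moves every probe up, and normexp moves the probes that are dim in AAV-V toward or below 0. Acaa1b, Scp2, Hsd17b4 and the late Acaa1a probe stay above 0 in both panels under every setting drawn.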

How the data were processed

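Total RNA of mouse liver had been labelled with Cy3 and hybridised to 9 one-colour Agilent arrays, 3 per group, and samples were grouped by their labels. The deposited intensity values come from Feature Extraction (12.0.3.1 per the file headers, 10.7 in the submitters' processing notes), which removed spatial and multiplicative trends within an array and did not scale arrays to each other. The log2 values deposited by the authors cover the same 56605 probe names and were used as an alternative; their column medians were 0.799 to 0.801 and their normalization is not given in the sources used here, nor whether they were centred.

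Unflagged spots of a probe were averaged as log2 processed signal. Arrays were shifted to an equal 75th percentile over the 2667 commonly detected probes, because most probes gave no detectable signal. The 6591 probes detected throughout 1 or more groups were fitted with limma 3.58.1 in R 4.3.3 (lmFit, eBayes, 3 groups, two-sided, Benjamini-Hochberg over all tested), and called at 2-fold and adjusted p under 0.05. The steps were tested on simulated data. Alternatives were 5 other scalings or background corrections, the authors' values, other filters, models, tests and thresholds, a replicate block, a detection floor, and leaving out each array. The number of arrays and the signal over background limit the precision. The text names all 9 members at every probe, list genes called between AAV-GP73 and AAV-V HFD, the 3 called genes with the largest and the 3 with the smallest change per list, and the 5 genes most alike in pattern. Members and lists were chosen with earlier results of these data known. Coordinates and names of probes are those of the files, and the promoters are those of RefSeq.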

Additional observations from a re-analysis of the deposited data

Results flagged for a closer look

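Ehhadh and Hacl1 differed between the AAV-GP73 and AAV-V HFD livers in the test of the difference itself, with a log2 difference of 3.40 for Ehhadh (adjusted p = 0.000103, limma) and 3.10 for Hacl1 (adjusted p = 0.00125), n = 3 arrays per group. All 3 AAV-GP73 arrays were above all 3 AAV-V HFD arrays for both genes. With these included, that held for 5 of the 10 tested member probes. The share over all probes tested was not taken, so that this count is a description and not a result about the members. Ehhadh was detected on 2 of the 3 AAV-V HFD arrays and passed the brightness filter through the AAV-GP73 arrays alone.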

How the results depend on the processing

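Hacl1 and Ehhadh were called for AAV-GP73 against AAV-V HFD under every scaling, with the authors' values, and without any single array, with log2 differences of 1.96 to 3.52 and 1.34 to 3.75. They were not called by the methods' t-test after Benjamini-Hochberg (adjusted p = 0.139 and 0.0612), where 0 member genes and 13 probes were called, and they were not among the probes well above background on all arrays, where 0 member genes and 71 probes were. The 176 probes called in that comparison became 48 with quantile normalization, 393 with spike-in scaling, 49 with normexp, 27 with the authors' values, 78 with no filter and 389 by the unadjusted t-test, and lay between 38 (without AAV-GP73 replicate 3) and 191 when an array was left out. They were 88 without AAV-GP73 replicate 1, 55 without its replicate 2 and 93 without AAV-V HFD replicate 1.

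Against AAV-V, spike-in scaling called 5220 probes for AAV-GP73 livers and 4511 for AAV-V HFD (3416 and 2767 in the main setting), normexp 893 and 966, no filter 47085 and 45130, detection on all arrays 1250 and 1086, and the adjusted t-test 1695 in AAV-V HFD. The share of calls that were higher was 65.4% and 59.6%, 91.3% and 95.2% with the 75th percentile of all probes, 98.2% in both with spike-ins, 71.5% in AAV-V HFD with quantile normalization, and 17% and 8.28% with normexp. The median change of all probes tested moved from 0.64 and 0.41 to 1.63 and 1.36, 2.32 and 1.74, 0.78 and 0.73, and -0.58 and -0.74 under the same settings, and the late member probes kept above it in each, except 1 in AAV-V HFD with normexp. Normexp left 4 and 2 member genes called, and the cause was not tested. Detection on all arrays left 3 and 3, with Scp2 and Acaa1b higher and Acaa1a called through its falling upstream probe, since by construction only these 3 member probes were fitted. Normexp turned Acox2 (-0.0035) in AAV-GP73 livers and, for AAV-V HFD, Abcd3 (-0.32), Acox2 (-0.011), Amacr (-0.20), Ehhadh (-0.81) and Hacl1 (-0.37); spike-in scaling turned the upstream Acaa1a probe in AAV-GP73 (0.15). Raising values under the detection floor to it, a setting chosen after seeing the data, left 37.3% and 25.6% of calls higher, called 6 member genes in AAV-V HFD and turned Ehhadh there (-0.91), with Hacl1 at 0.85 and Abcd3 at 0.99. Leaving out 1 array gave 9 member genes for AAV-GP73 livers and 8 to 9 for AAV-V HFD.

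Equal replicate numbers did not pair the arrays (correlations of deviations -0.11 to 0.17, 2 of 9 over 0.1). With the replicate number as a block, 3413, 2779 and 124 probes and 9, 9 and 2 member genes were called.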
